A study of Mus musculus with 59 samples.

Results

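The 10 genes described here are named for their place in the trophectoderm, the outer epithelium of the blastocyst that forms the placenta. They are Cdx2, Eomes, Gata3, Gata2, Tfap2c, Tfap2a, Tead4, Elf5, Krt8 and Krt18, taken as a list of names drawn up with earlier results of these data known, and all 10 were found among the 24421 genes of the expression table. The RNA came from cloned mouse embryos. Cloning by nuclear transfer (SCNT) gives an oocyte, stripped of its own chromosomes, the nucleus of a somatic cell and then activates it. The labels name cumulus cells, the somatic cells around the oocyte, as the donor cells.

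Of the 4 groups used, 3 were untreated and differed in stage. The 1-cell group was collected 13 to 14 h, the early 2-cell group 20 to 21 h and the late 2-cell group 33 to 34 h after activation. The remaining group, also late 2-cell at 33 to 34 h, had received trichostatin A (TSA), which inhibits histone deacetylases. Each has 5 libraries of poly(A) RNA in the labels. All 4 are labelled as strain BDF1, the protocol gives C57BL/6n females of 5 to 7 weeks as the source of oocytes, and the polar bodies were removed before collection. The sources used here give no dose or duration of TSA, and embryos made by fertilization were not analysed here. The table gives the authors' 1 value per gene and group, in FPKM (fragments scaled by transcript length and by library total). Differences are therefore given without error, p-value or check against replicates. FPKM is per length, so the levels of different genes within a group are compared here in FPKM. A difference is that of log2(FPKM + 1) values, and a gene is counted as 2-fold apart when this reaches 1 and the gene has at least 1 FPKM in either column compared.

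The trophectoderm is set apart from the inner cell mass at the morula and blastocyst stages, after the stages measured here. In outer cells the Hippo pathway is off, so its co-activators YAP1 and WWTR1 enter the nucleus and work with the DNA-binding factor TEAD4 to switch on Cdx2 and Gata3. CDX2, EOMES, GATA3, GATA2, TFAP2C, TFAP2A and ELF5 are transcription factors of trophectoderm and trophoblast stem cells, and the RNA or protein of some of them is already present in the egg. KRT8 and KRT18 are partner keratins that pair into the filaments of simple epithelia, the trophectoderm among them.

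The stage labels were checked against marker genes. The 17 oocyte markers summed to 7671, 7963, 2837 and 2132 FPKM in the 1-cell, early 2-cell, late 2-cell and TSA-treated groups, led in each by Dppa3. Without Dppa3 the other 16 summed to 4349, 3133, 1695 and 1134 FPKM, lower at each later stage. The 22 markers of the 2-cell stage that were in the table summed to 189, 306, 781 and 1200 FPKM in the same order. Single genes led these sums and did not move alike. Tcstv1 led in 1-cell and early 2-cell embryos, at 139 and 203 FPKM, and was at 36.8 and 27.2 FPKM in the late groups. Gm5662 led in the late groups, at 311 and 474 FPKM. The column taken as 1-cell is named by 13 h and not by a stage, and its match is inferred from the collection time. A value of 0 is treated with care, because even Gapdh, a glycolytic gene of general use, lay below 1 FPKM in all 4 columns (0.0282 to 0.908). How many fragments stand behind each value is unknown. In whole 2-cell embryos, fewer cells with a transcript and less of it per cell cannot be told apart.

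Promoter sequence is shown for Gata3, Krt8 and Krt18, since Gata3 has the most matches to the AP-2 motif of Tfap2c and Tfap2a among the 8 members with a window, and the keratin pair are neighbours whose values move apart below. Each is the 250 bases before a RefSeq start (GRCm38.p6), 5′ to 3′ on the gene's strand, with motif matches in capitals. The Gata3 window is chr2:9878601-9878850 on the minus strand, the Krt8 window chr15:102004343-102004592 on the minus strand, and the Krt18 window chr15:102027966-102028215 on the plus strand.
Gata3: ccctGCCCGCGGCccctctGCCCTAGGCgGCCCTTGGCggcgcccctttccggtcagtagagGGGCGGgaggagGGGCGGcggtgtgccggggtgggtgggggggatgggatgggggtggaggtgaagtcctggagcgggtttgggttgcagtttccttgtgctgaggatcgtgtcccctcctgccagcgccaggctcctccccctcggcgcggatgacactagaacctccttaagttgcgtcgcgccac
Krt8: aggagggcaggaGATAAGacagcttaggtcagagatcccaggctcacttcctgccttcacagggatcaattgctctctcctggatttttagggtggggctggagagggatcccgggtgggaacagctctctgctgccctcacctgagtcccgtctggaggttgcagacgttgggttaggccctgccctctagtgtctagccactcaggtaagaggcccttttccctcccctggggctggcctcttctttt
Krt18: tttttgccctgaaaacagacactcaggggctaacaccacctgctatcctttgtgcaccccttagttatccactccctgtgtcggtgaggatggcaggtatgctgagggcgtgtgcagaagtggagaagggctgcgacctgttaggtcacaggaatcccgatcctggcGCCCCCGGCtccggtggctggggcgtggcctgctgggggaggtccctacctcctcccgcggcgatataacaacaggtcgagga

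Both strands were searched for a few short motifs. These were CATTCC, the core bound by TEAD factors, the AP-2 motif GCCNNNGGC, the sequence GATAAG, which is bound by factors of the GATA family, the promoter box TATAAA, and GGGCGG, known as the GC box. In that order they occur in 12.6%, 13.7%, 6.55%, 12.4% and 32.8% of all 32841 windows of this length. The Gata3 window holds 3 AP-2 matches, at positions -246, -231 and -221 from the start, 2 GC boxes and 19 CpG dinucleotides, against a median of 6 CpG over all windows. The Krt18 window holds 1 AP-2 match, at position -83, and 12 CpG. The Krt8 window holds 1 GATA match, at position -238, and 3 CpG. The Gata3 window lies inside the RefSeq span of its gene, before a start that is not the outermost one. In all, the members other than Tfap2c and Tead4 matched 11 windows. Of these 2 hold a TEAD match, 4 an AP-2 match, 2 a GATA match, 0 the exact letters TATAAA and 5 a GC box. Variants of these letters were not searched. A match describes these letters only.

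Across the 4 groups, 6 members reached 1 FPKM somewhere, and the others, Cdx2, Eomes, Gata2 and Elf5, did not reach it in any. The members together held 35.1 FPKM at the 1-cell stage, 31.8 FPKM in early and 50.04 FPKM in late 2-cell embryos, and 42.3 FPKM with TSA. The 8 transcription factors gave 34.2, 27.3, 10.7 and 20.3 FPKM of these sums. Before the late 2-cell stage most of the members' FPKM was thus that of transcription factors, chiefly Gata3 and Tfap2c, and after it most was that of keratins in untreated embryos. Gata3 was the highest member in 1-cell and early 2-cell embryos, and Krt18 was the highest in both late 2-cell groups. The median member was at 0.222, 0.559, 0.825 and 0.645 FPKM, beside medians of 0.259, 0.288, 1.002 and 0.883 FPKM over all genes.

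**Figure D1:**
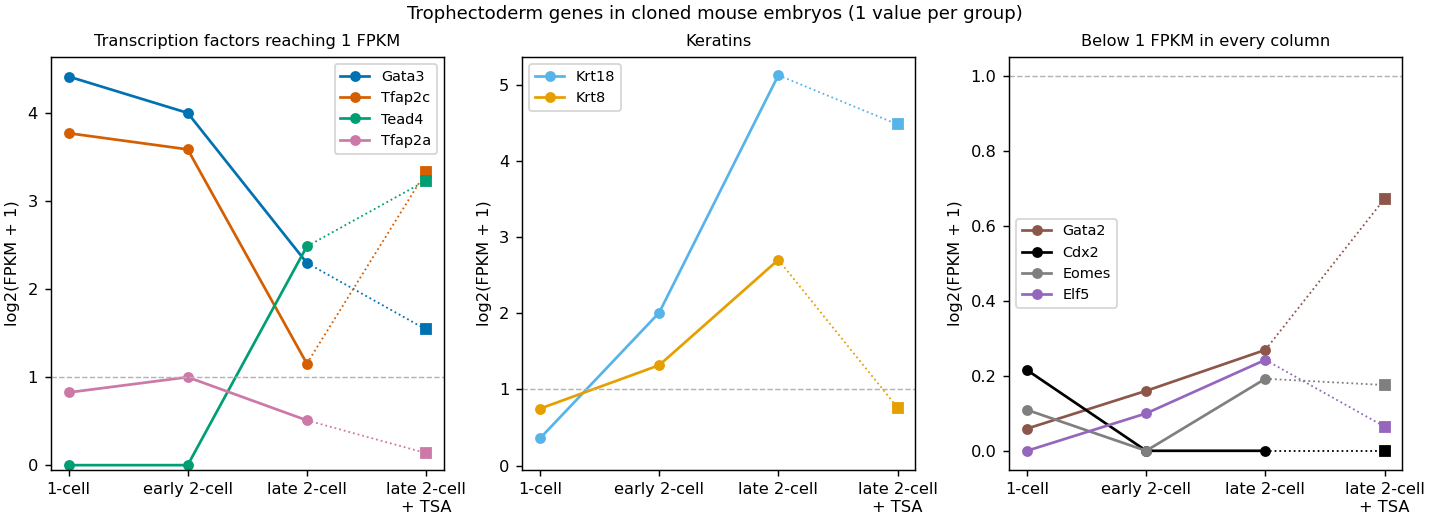
Values of the 10 genes as log2(FPKM + 1) on the y axes (scales differ between panels) in the 4 groups on the x axes, with 1 value per group and no error bars; circles are untreated stages, squares the TSA-treated group, and the dashed grey line marks 1 FPKM. Gata3 and Tfap2c start high and are lower at the late 2-cell stage, Tead4 and Krt18 are highest in the late 2-cell groups, Krt8 is highest in the untreated late 2-cell group, and the 4 genes of the right panel stay below 1 FPKM.

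TEAD4 acts upstream of Cdx2 and Gata3 in outer cells and binds the TEAD core. The Gata3, Krt8 and Krt18 windows printed above hold no match to it, as most windows do not, since it occurs in 12.6% of all. Binding was not tested. Tead4 (chr6:128227143-128300813) was listed at 0 in 1-cell and early 2-cell embryos, at 4.61 FPKM in late 2-cell embryos and at 8.42 FPKM with TSA. It was thus listed above 0 only in the late groups, and its rank moved to above 65.8% of all genes in the untreated and 73.6% in the TSA-treated column. Its relative Tead2 was at 16.8 FPKM in untreated and 18.02 FPKM in TSA-treated late 2-cell embryos, so Tead4 gave 18.1% and 29.2% of the summed FPKM of the 4 TEAD genes. In 1-cell and early 2-cell embryos Tead1 was the highest TEAD gene, at 2.07 and 1.67 FPKM.

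GATA3 is a zinc finger factor that acts beside CDX2 in outer cells. Gata3 (chr2:9857078-9887953) was at 20.4 FPKM in 1-cell, 15.1 FPKM in early 2-cell and 3.92 FPKM in late 2-cell embryos, and at 1.92 FPKM with TSA. Each later untreated stage was lower than the one before, and the TSA value was the lowest of the 4. Gata3 gave 85.9% and 81.7% of the summed FPKM of the 6 GATA genes in 1-cell and early 2-cell embryos, then 16.0% and 6.28% in the late groups. That sum itself was 23.8, 18.4, 24.5 and 30.5 FPKM. Its leading gene became Gata4, a factor of primitive endoderm, at 11.8 FPKM in untreated late 2-cell embryos, and Gata1, a factor of red blood cells, at 14.99 FPKM with TSA. Gata2 (chr6:88193891-88207032), which works with GATA3 in trophoblast, was at 0.0418, 0.117, 0.205 and 0.593 FPKM. It stayed below 1 FPKM throughout, with its highest value in the TSA-treated group. Gata3 overlaps 4930412O13Rik and 9230102O04Rik, both listed at 0 in every column, and Gata2 overlaps Gm38708.

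TFAP2C and TFAP2A belong to the AP-2 family, which binds the motif marked in the Gata3 and Krt18 windows. Tfap2c (chr2:172545678-172558622) was at 12.7 FPKM in 1-cell, 11.1 FPKM in early 2-cell and 1.23 FPKM in late 2-cell embryos without treatment, and at 9.10 FPKM with TSA. The untreated late 2-cell value stands alone as low, and the TSA value lies near those of the earlier stages. Tfap2a (chr13:40713802-40738238), a family member that can share targets with Tfap2c, was at 0.773, 1.001, 0.424 and 0.0998 FPKM. It touched 1 FPKM only in early 2-cell embryos and was lowest with TSA. Neither was the leading AP-2 gene. Tfap2e, a relative outside the 10 genes, was at 70.8, 81.6, 19.5 and 16.2 FPKM, and Tfap2c gave 12.8%, 10.4%, 3.38% and 28.4% of the summed FPKM of the 5 AP-2 genes. That sum was 36.3 FPKM without and 32.02 FPKM with TSA. Tfap2b, a relative expressed in kidney and neural crest, was lower with TSA, at 6.55 against 15.1 FPKM.

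CDX2, EOMES and ELF5 hold the trophoblast stem cell state. Cdx2 (chr5:147300900-147307249) was at 0.161 FPKM in 1-cell embryos and listed at 0 in the other 3 groups. Eomes (chr9:118478186-118486132, overlapping Gm33408) was at 0.0785, 0, 0.142 and 0.129 FPKM. Elf5 (chr2:103412098-103450989) was at 0, 0.0716, 0.183 and 0.0457 FPKM. None of these values reached 1 FPKM, and comparisons between them are not made here. The relatives of Cdx2 and Eomes were low as well, with Cdx1 and Cdx4 listed at 0 in every group and Tbx21 at most at 0.440 FPKM. Only among the relatives of Elf5 were higher levels found, as in Ehf, an ETS factor of epithelia, at 105, 54.3, 12.4 and 9.81 FPKM.

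**Figure D2:**
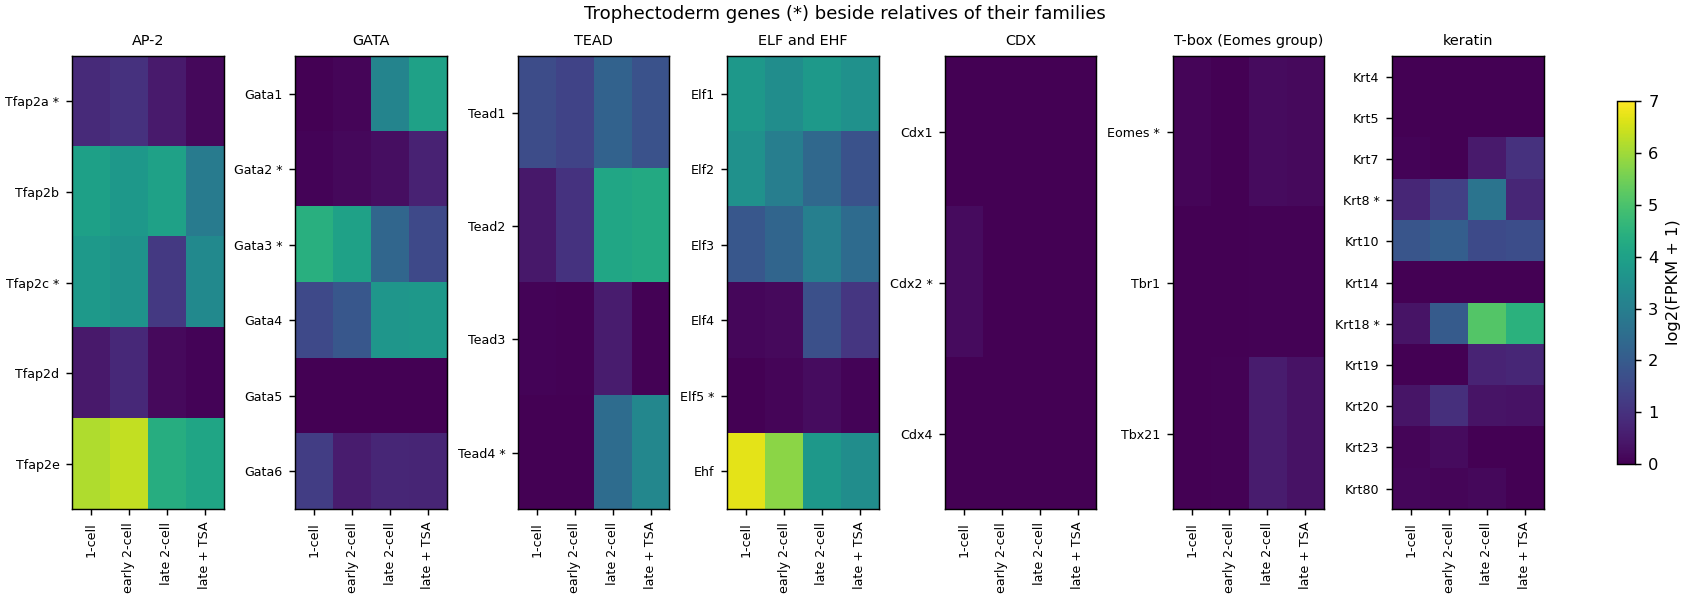
Colour gives log2(FPKM + 1), from 0 to 7, for each trophectoderm gene (marked *) and other genes of its family, with the 4 groups on the x axes and genes on the y axes. In the AP-2 panel Tfap2e is the brightest gene in every column, in the GATA panel the bright cells pass from Gata3 to Gata1 and Gata4 at the late 2-cell stage, and among keratins Krt18 is the brightest in both late groups.

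The keratins are the members made by the finished epithelium. Krt18 (chr15:102028216-102032026), a type I keratin, was at 0.283 FPKM in 1-cell, 3.02 FPKM in early 2-cell and 33.8 FPKM in late 2-cell embryos, and at 21.3 FPKM with TSA. It was above 50.8% of all genes in the 1-cell column and above 88.2% in the untreated late 2-cell column. Krt8 (chr15:101996711-102004342), its type II partner, was at 0.680, 1.49, 5.50 and 0.696 FPKM. Both were highest in untreated late 2-cell embryos, but the TSA-treated group kept a high Krt18 value while its Krt8 value was back near that of 1-cell embryos. The ratio of Krt18 to Krt8 FPKM was 0.415, 2.02, 6.14 and 30.6 in the 4 groups. The start sites of the pair face away from each other, 23.9 kb apart, and no coding gene is nearer to Krt18 than Krt8 is. Krt7 and Krt19, the other simple-epithelium keratins of trophoblast, stayed at or below 0.985 and 0.697 FPKM. RefSeq lists a pseudogene named Krt8-ps, and how reads of such a copy were assigned is not given in the sources used here, so the Krt8 values are uncertain to that extent.

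Untreated late 2-cell embryos were set against early 2-cell embryos, the step across which the mouse embryo starts most of its own transcription. Tead4, Krt18 and Krt8 were at least 2-fold higher at the late stage, and Gata3 and Tfap2c were at least 2-fold lower. Tfap2a, the remaining member with 1 FPKM in either column, went from 1.001 to 0.424 FPKM, a difference of -0.49. Of the 10 members 6 passed the floor of 1 FPKM, and 3 of these were 2-fold higher and 2 were 2-fold lower, beside 47.9% higher and 10.9% lower of the 12794 genes that passed it. Higher values were thus common in the table. A gene that passes the floor only where it is high tends to differ by this filter alone, so these shares are a description. The genes kept had a median difference of 0.92 and the 6 members kept one of 0.45. With no floor the 24421 genes had a median of 0.066 and the 10 members one of 0.13.

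By size, Krt18 was 11.2 times higher in FPKM, a difference of 3.11, and 1024 genes of the table, Krt18 included, were as far higher. Tead4 differed by 2.49 from a value listed at 0, so no fold is given for it. Krt8 differed by 1.38. Relative to the median of the genes kept, 0.92, these differences were 2.20, 1.57 and 0.47, so the keratins lie at unequal distances from it. Among the lower genes, Tfap2c was 9.01 times lower in FPKM, a difference of -2.44. As far lower were 222 genes of the table, Tfap2c included. Gata3 was 3.84 times lower, a difference of -1.71. Relative to the same median these were -3.35 and -2.62.

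The scaling of the columns moves this comparison. Of the genes 2-fold apart, 81.4% were higher as deposited, 65.1% after median-ratio scaling and 50.7% after quantile normalization. The median of the genes kept was 0.44 and 0.047 under these scalings. Krt8 was no longer 2-fold higher under either scaling, at 0.91 and 0.26. Krt18 stayed at 2.55 and 2.13, Tead4 at 2.23 and 1.93, Gata3 at -2.26 and -2.68, and Tfap2c at -2.91 and -3.28. With a pseudocount of 5 the differences of Tead4 and Krt8 were 0.94 and 0.69, below the threshold. Tfap2a, within 2-fold as deposited, was past the threshold at -1.18 after quantile normalization and at -1.07 with a pseudocount of 0.1. After median-ratio scaling it was at -0.75.

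Early 2-cell embryos were next set against 1-cell embryos, across the first cleavage. Krt18 was the member that was at least 2-fold apart, at 3.02 against 0.283 FPKM, which is 10.7 times higher and a difference of 1.65. As far higher were 85 genes of the table, Krt18 included. That is 1 member higher and 0 lower of the 5 that passed the floor, beside 3.72% higher and 7.12% lower of the 10117 genes kept. With a pseudocount of 5 its difference was 0.60, under the threshold, since the 1-cell value is low. Krt8 differed by 0.57, Gata3 by -0.41, Tfap2a by 0.17 and Tfap2c by -0.18, none of which reached 1 on the log2(FPKM + 1) scale. Krt8 was 2.20 times higher when FPKM are divided without an added 1, and with a pseudocount of 0.1 its difference was 1.03. Tfap2c and Gata3, which together made 33.1 FPKM in 1-cell embryos, still made 26.1 FPKM in early 2-cell embryos. The 5 members kept had a median difference of 0.17 and all genes kept one of -0.081. With no floor these were 0.050 for the 10 members and 0 for the table. Of the genes 2-fold apart, 34.3% were higher as deposited, 43.7% after median-ratio scaling and 45.8% after quantile normalization.

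The question of the treatment comparison is how late 2-cell embryos differ when histone deacetylases are inhibited. Tfap2c was at least 2-fold higher with TSA and Krt8 at least 2-fold lower. Of the 5 members that passed the floor that is 1 higher and 1 lower, beside 2.51% higher and 4.08% lower of the 12756 genes kept. The other members with at least 1 FPKM lay within 2-fold on the log2(FPKM + 1) scale. Tead4 differed by 0.75, Gata3 by -0.76 and Krt18 by -0.64. The 5 members kept had a median of -0.64 and all genes kept one of -0.080. With no floor these were -0.097 for the 10 members and 0 for the table. Of the genes 2-fold apart, 38.1% were higher as deposited, 47.7% after median-ratio scaling and 50.9% after quantile normalization.

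The difference of Tfap2c was 2.18, or 7.42 times in FPKM, and 23 of the 12756 genes, Tfap2c included, were as far higher. Among the 3952 genes whose higher value lay from 5 to 20 FPKM, 13 had a difference of 2 or more, or 0.329%. Tfap2c is among both numbers. The difference stayed past the threshold in every alternative setting tried, from 1.18 to 2.79. Krt8 had a difference of -1.94, or 7.91 times lower in FPKM, and 29 genes, Krt8 included, were as far lower. With a pseudocount of 5 it was -0.88, under the threshold. Krt18, the partner of Krt8, was 1.59 times lower in FPKM, so the pair did not differ by the same amount. Gata3 was 2.05 times lower in FPKM, but its difference on the log2(FPKM + 1) scale stayed under the threshold. A link between the Tfap2c and Gata3 values was not tested. With a pseudocount of 0.1, Gata2 (1.19) and Tfap2a (-1.39) were also past the threshold, both from values under 1 FPKM.

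The untreated late 2-cell value is shared by the stage and the treatment comparison, so a low or high value of that column enters both. For Tfap2c the early 2-cell, untreated late and TSA-treated late values were 11.1, 1.23 and 9.10 FPKM, and for Krt8 they were 1.49, 5.50 and 0.696 FPKM. For both genes the untreated late column stands apart from the other columns. For Tead4 they were 0, 4.61 and 8.42 FPKM and for Krt18 3.02, 33.8 and 21.3 FPKM, where both late columns stand on the same side of the early one. Without separate values for the 5 libraries of a group, whether single libraries set these values was not tested.

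**Figure D3:**
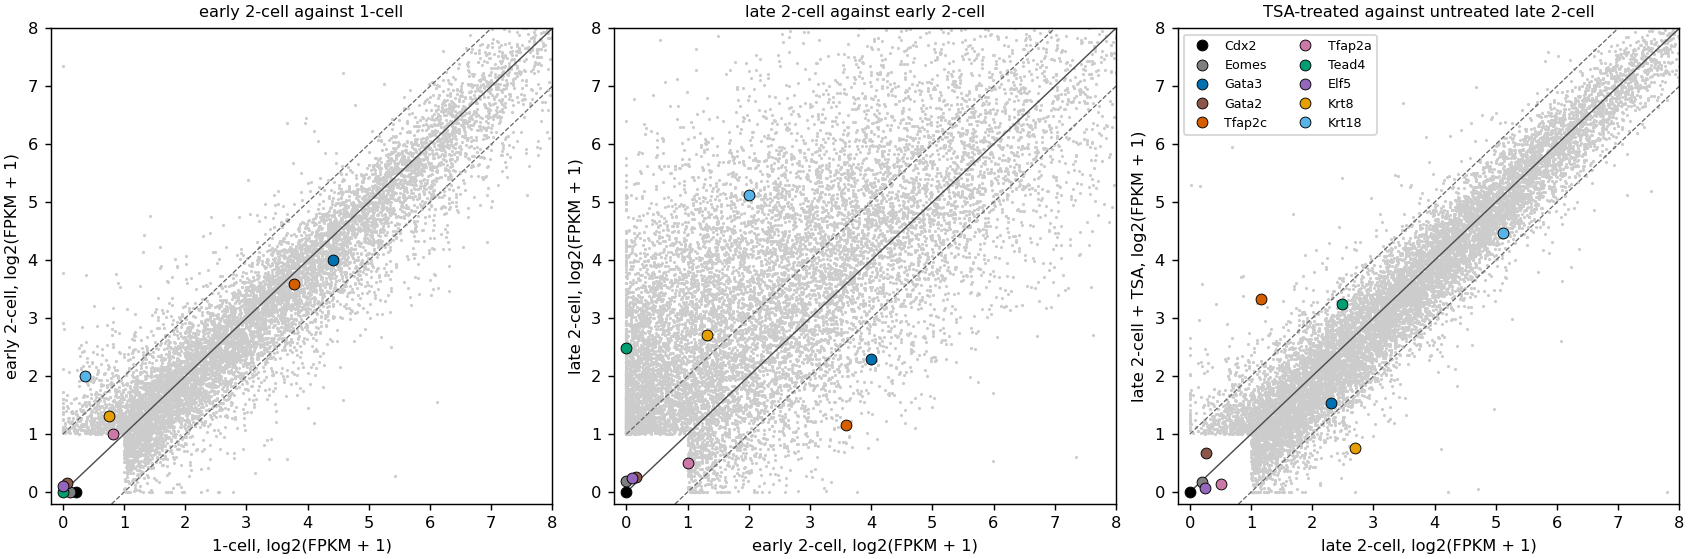
Grey points are genes that reached 1 FPKM in either column, each at its log2(FPKM + 1) value in the earlier or untreated group on the x axis and in the later or TSA-treated group on the y axis, with axes ending at 8; the solid line marks equal values, the dashed lines a difference of 1, and the coloured points are the 10 genes. Krt18 lies above the upper dashed line in the first panel, Tead4, Krt8 and Krt18 above and Gata3 and Tfap2c below the dashed lines in the second, and Tfap2c above and Krt8 below them in the third.

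Krt8 was also set beside markers of the cumulus donor cells, the other cell type these samples could hold. The 24 cumulus and granulosa markers summed to 60.1, 63.03, 186 and 154 FPKM in the 4 groups. From early to late 2-cell embryos 12 passed the floor, and 7 were 2-fold higher and 2 lower as deposited. Of all genes kept, 47.9% were higher and 10.9% lower. The list's counts over all 24 markers, with no floor, were 4 and 3 after median-ratio scaling, and 3 and 5 after quantile normalization. The 12794 genes kept gave 4523 and 2420, and 3366 and 3271, under these scalings. With TSA 11 passed the floor, and 0 were higher and 3 lower, as deposited and under either scaling. Of all 12756 genes kept, 2.51% were higher and 4.08% lower as deposited. Median-ratio scaling gave 379 higher and 416 lower, and quantile normalization 393 and 379. Anxa2 and Lgals1, which many cell types express, were highest in untreated late 2-cell embryos, as Krt8 was. From early 2-cell to TSA-treated embryos they were at 8.28, 67.0 and 23.6 FPKM and at 1.71, 9.06 and 1.28 FPKM. Fshr, a hormone receptor of granulosa cells, was at 0.294, 1.64 and 0 FPKM in those columns. Nr5a2 and Gja1 were instead highest with TSA, at 13.8, 52.7 and 69.02 FPKM and at 11.99, 29.5 and 34.7 FPKM. Nr5a2, counted below among inner cell mass genes too, was the highest of the 24 markers with TSA. The markers most particular to granulosa cells went different ways. Inha was listed at 0 in both late groups, and Foxl2, Nr5a1 and Amh were at most 0.249, 0.0741 and 0.297 FPKM in any group. Amhr2 was at 0.0201, 3.01 and 4.96 FPKM in early, untreated late and TSA-treated late 2-cell embryos. Cyp19a1 was at 8.31, 6.26, 0.498 and 1.703 FPKM in the 4 groups. Of the 24 markers, 9, 10, 9 and 10 reached 1 FPKM, and 3, 7, 4 and 6 were listed at 0. Blood markers, 9 genes, summed to 1.61, 1.97, 57.5 and 76.6 FPKM, in the late groups mostly from Hba-a1. From early to late 2-cell embryos 5 of them passed the floor, of which 5 were higher and 0 lower. With TSA 5 passed, of which 1 was higher and 2 lower. The part of other cells in the Krt8, Gata1 and other values was not tested.

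The pathway that controls TEAD4 was described by 23 Hippo genes and TEAD partners. In the late against early 2-cell comparison 20 passed the floor, of which 8 were 2-fold higher and 2 lower as deposited. Of all genes kept, 47.9% were higher and 10.9% were lower. After quantile normalization 4 of the 23 were higher and 6 lower, counted with no floor. Of the 12794 genes kept, 3366 were then higher and 3271 lower. The median of all 23 was 0.49 as deposited and -0.099 after quantile normalization. Wwtr1, one of the co-activators of TEAD4, was at 16.5 against 1.03 FPKM, and Stk3, a Hippo kinase, was lower at 11.5 against 43.3 FPKM. Yap1, the other co-activator, was already at 68.7 FPKM in 1-cell embryos and at 96.8, 106 and 74.6 FPKM after that. Yap1 was thus listed well above 0 in the columns where Tead4 was listed at 0. In the early 2-cell against 1-cell comparison 0 were 2-fold apart. With TSA 0 were higher and 1 lower, which was Taok2, a kinase upstream of the Hippo kinases, at 0.949 against 6.98 FPKM.

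Some genes that build the trophectoderm epithelium besides the keratins were also 2-fold higher at the late 2-cell stage, where higher values were common. Of all 12794 genes kept, 47.9% were higher and 10.9% lower as deposited. After quantile normalization 3366 of them were higher and 3271 lower. Of 35 polarity and junction genes, 31 passed the floor, and 15 were 2-fold higher and 3 lower than at the early 2-cell stage as deposited. After quantile normalization 12 of the 35 were higher and 11 lower, counted with no floor. The median of all 35 was 0.48 as deposited and -0.24 after quantile normalization. Epcam, an adhesion protein of epithelia, was at 155 against 1.19 FPKM, and Ocln, of tight junctions, at 41.3 against 1.44 FPKM. Rdx, which links membrane to actin, was lower at 101 against 345 FPKM. In the first cleavage step 1 was higher and 0 lower, and with TSA 0 were higher and 2 lower, of which Cldn7, of tight junctions, was at 4.77 against 14.8 FPKM.

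Ion and water transport, by which the trophectoderm fills the blastocyst cavity, was described by 10 genes. At the late 2-cell stage 7 were 2-fold higher and 0 lower, of 9 that passed the floor. The shares over all genes kept were 47.9% higher and 10.9% lower. The median of all 10 was 1.76 as deposited and 0.90 after quantile normalization, where 5 were higher and 0 lower, counted with no floor. Of the 12794 genes kept, 3366 were higher and 3271 lower after quantile normalization. Aqp3, a water channel, was at 12.1 against 0.236 FPKM, and Atp1b1, a sodium pump subunit, at 19.2 against 2.87 FPKM. From the 1-cell to the early 2-cell stage 1 was higher and 1 lower, and with TSA 0 were higher and 1 lower. Cdx2 was listed at 0 in the untreated late 2-cell column, and a link between its value and these genes was not tested.

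Of 33 other trophoblast genes, 19 passed the floor, and 11 were 2-fold higher and 2 lower at the late 2-cell stage as deposited, against 8 and 5 after quantile normalization. The median was 1.66 over the 19 genes kept and 0.43 over all 33, the latter 0 after quantile normalization. Plet1, a surface protein of trophoblast progenitors, was at 12.0 against 0.136 FPKM. Cited2, a co-regulator that works with TFAP2 factors, was at 29.7, 6.00 and 1.96 FPKM in the untreated stages in order. Prl3d1, Prl2c2 and Synb, genes of later placental cells, were listed at 0 in every group. In the first cleavage step 1 was higher and 1 lower. With TSA 1 was higher and 1 lower as deposited, and 2 and 1 after either scaling. The higher was Ascl2, a regulator of trophoblast progenitors, at 18.5 against 3.83 FPKM. The lower was Plac1, a placental gene, at 6.53 against 20.4 FPKM. Of 28 relatives of the members, 4 were higher and 2 lower in the stage step, of 12 that passed the floor, but 2 and 6 after quantile normalization, and 0 were higher and 1 lower with TSA. Of 18 inner cell mass genes, the counterpart lineage, 9 were higher and 1 lower in the stage step, of 12 that passed the floor, or 5 and 2 after quantile normalization, and 3 were higher and 0 lower with TSA. The shares over the whole table given above are of genes that passed the floor. The counts of a list stand beside them only over its own genes that passed. These shares are as deposited, and the scaled counts of a list are over all its genes, with no floor. In the stage step 3366 of the 12794 genes kept were higher and 3271 lower after quantile normalization. With TSA 379 and 416 of the 12756 genes kept were so after median-ratio scaling, and 393 and 379 after quantile normalization. With TSA 20 Hippo genes, 30 polarity and junction genes, 9 transport genes and 20 other trophoblast genes passed. So did 12 relatives and 14 inner cell mass genes, beside table shares of 2.51% higher and 4.08% lower. In the first cleavage step 20 Hippo, 24 polarity and junction, 7 transport and 15 other trophoblast genes passed, beside 3.72% and 7.12%. The lists share some genes: Tead1, Tead2 and Tead3, Gata4 and Gata6, and Nr5a2 are each in 2 lists.

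**Figure D4:**
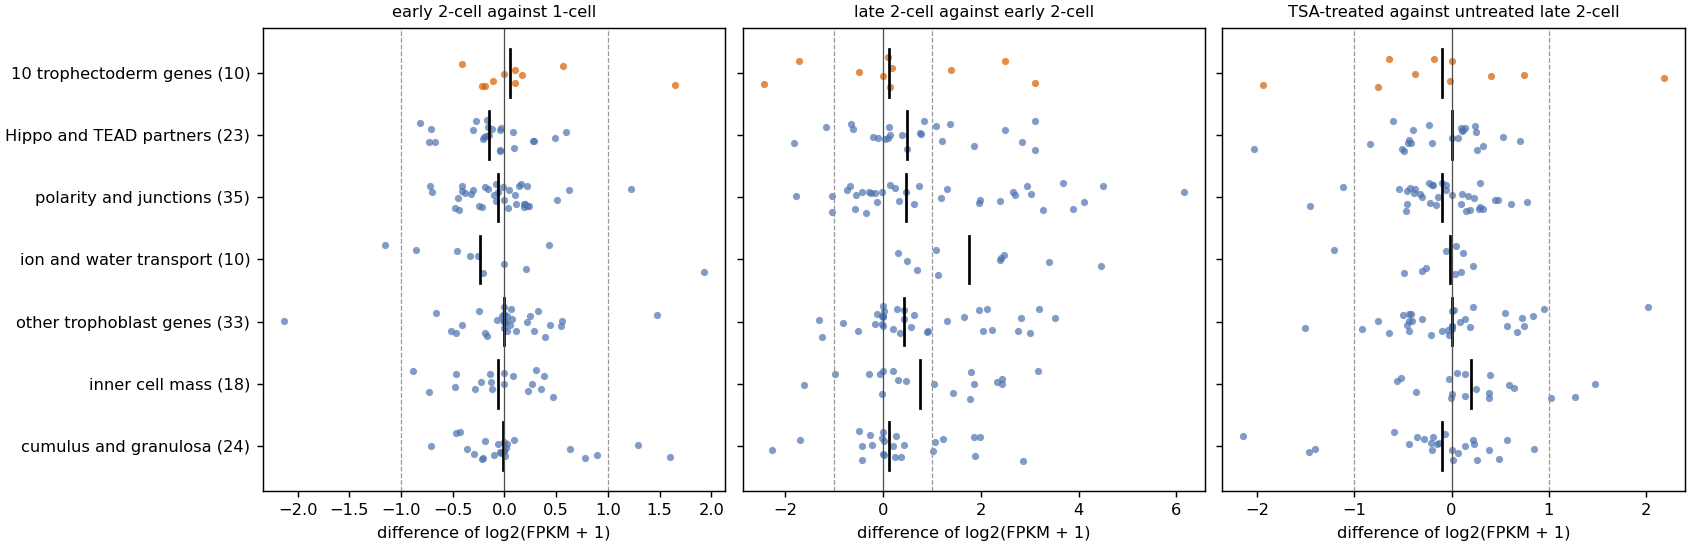
Each point is a gene, at its difference of log2(FPKM + 1) values on the x axis, in rows for the 10 trophectoderm genes (orange) and 6 other lists (blue, number of genes in brackets), with 1 panel for each comparison; black bars are medians, dashed lines mark a difference of 1, and vertical scatter within a row has no meaning. The rows spread widely in the late against early 2-cell panel, and in the TSA panel the orange points past the dashed lines are Tfap2c on the right and Krt8 on the left.

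For each of the 5 members that reached 5 FPKM, the genes with the most similar course over the 4 groups were found among 8518 genes, by the distance between log2(FPKM + 1) values after taking off each gene's mean. With 4 columns this is a description of these columns. Tfap2c had the least common course, with 1 gene nearer than 0.5, the homeobox gene Barx2 at 0.22, which was at 4.90, 5.05, 0 and 3.11 FPKM. Next came Prr23a3 and Pik3cd, a catalytic subunit of PI 3-kinase, each at 0.52. Krt8 had 5 genes within 0.5, led by Smagp, a small membrane protein of epithelia, at 0.32, with 46.5, 63.4, 184 and 35.8 FPKM. Taok2 and Dynlt1c followed at 0.46. Krt18 had 17 genes within 0.5, led by the kinase gene Stk16 at 0.19, and then Arrdc4 and Hilpda. Gata3 and Tead4 had common courses, with 126 and 306 genes within 0.5. The nearest to Gata3 was Fndc3a at 0.061, before Afap1l2 and Fnbp1l, and the nearest to Tead4 was Drg2 at 0.077, before Uqcrfs1 and Nsun5. Among the 5 members themselves the closest were Tead4 and Krt18, at a distance of 1.703, followed by Gata3 and Tfap2c at 2.25, while the keratin partners were 3.15 apart.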

How the data were processed

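RNA values of 4 groups of SCNT embryos were used, from a table of 24421 genes. Per the file headers, the authors deposited log2 values of FPKM with 1 added, and each column holds 1 value per gene for a whole group. The submitters' processing notes name mm10 as the build, with the tools Cufflinks, StringTie 1.3.4 and HISAT2 2.1.0, and also SAMtools 1.7, deepTools 2.5.7 and Bowtie2 2.3.4.3. How the libraries of a group were combined is not given in the sources used here. Of 6 columns of values, 2 match no RNA group in the labels and were not used. The 35 chromatin libraries and 4 libraries of Dux-injected embryos were not analysed here.

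Values were turned back to FPKM and compared with Python 3.11.15, numpy 2.4.6 and pandas 2.3.3. The planned limma model needs replicates, could not be fitted here and was replaced by a description of size. The filter was 1 FPKM in either column compared. All members are named, and of the other lists up to 5 genes per direction with at least 5 FPKM and a difference of at least 1 could be, beside a few levels of Yap1, Krt7, Krt19, Gapdh, cumulus markers and family relatives chosen after their values were seen. The members and lists were chosen with earlier results of these data known. The counting was tested on simulated data. Alternatives were pseudocounts of 0.1 and 5, a floor of 5 FPKM, no floor, median-ratio scaling and quantile normalization. Promoters and positions are from RefSeq (GRCm38.p6), and the files' build mm10 is the same assembly.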

Additional observations from a re-analysis of the deposited data

How the results depend on the processing

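No paired analysis was possible because the table has 1 column per group and its columns carry no replicate numbers, and for the same reason no library could be left out in turn. In the counts of this paragraph members had no floor, whereas genes of the whole table had to pass it, so the counts are not like for like. With a pseudocount of 0.1, 2 members were higher and 2 lower with TSA (614 and 1074 genes of the whole table). From the 1-cell to the early 2-cell stage 2 were higher and 1 lower (713 and 1152 genes). Gata2 and Tfap2a in the first of these counts, and Cdx2 in the second, were below 1 FPKM in both columns compared. By the floor used above they would not be counted. With a pseudocount of 5, 0 members were lower with TSA (89 genes of the whole table higher, 92 lower), 0 were higher at the early 2-cell stage (90 genes higher, 334 lower), and 1 was higher at the late 2-cell stage (3556 genes higher, 847 lower). With a floor of 5 FPKM, 179 genes were higher and 280 lower with TSA, and 182 were higher at the early 2-cell stage. Between the 2-cell stages 2420 genes were lower after median-ratio scaling, and 3366 were higher and 3271 lower after quantile normalization, under which the members' median was -0.058. No 2-fold call of one of the 10 members changed its direction under these settings, whereas the sign of that median did. A higher pseudocount shrinks the differences of low genes by its construction, and the depth behind low values is unknown.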
